A study of Mus musculus with 34 samples.

Results

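A set of 10 secreted factors was followed, the chemokines Cxcl1, Cxcl2, Cxcl5, Cxcl10, Cxcl16 and Ccl2, the colony-stimulating factors Csf1 and Csf2, the cytokine Lif and the matricellular protein Spp1. They were chosen by symbol with earlier results of these data known, and all 10 had a row among the 14107 genes of the count table. The 34 RNA-seq libraries came from NaJa-D, NaJa-F and NaJa-G, mouse colorectal cancer lines grown from peritoneal lavages of individual C57BL/6N recipients after orthotopic transplantation of 1 organoid line. Every library carries the genotype VillinCreERT2::BrafV600E/+::Trp53R172H::APCdel, in which the Villin promoter drives a tamoxifen-inducible Cre in intestinal epithelium, so oncogenic BRAF, mutant Trp53 and loss of Apc are shared by treated and control cells. NaJa-D is epithelial-like, NaJa-G mesenchymal-like and NaJa-F intermediate, and each line is 1 isolate, so a difference between lines is a difference between 3 isolates. Cells received 0.5 µM encorafenib, an inhibitor of the BRAF kinase, or DMSO at day 0, and RNA was taken at day 1, or at day 5 after renewal of medium and drug on days 2 and 4. Each of the 12 groups had 3 libraries, except NaJa-F with encorafenib at day 5 and NaJa-G with DMSO at day 5, which had 2.

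Chemokines are small secreted proteins that bind G protein-coupled receptors on leukocytes and set the direction of their migration. Cxcl1, Cxcl2 and Cxcl5 act on Cxcr2 and draw neutrophils, Cxcl10 acts on Cxcr3 of activated T cells, Cxcl16 on Cxcr6, and Ccl2 on Ccr2 of monocytes. Csf1 (M-CSF) sustains macrophages through Csf1r, Csf2 (GM-CSF) acts on myeloid cells through a receptor of the alpha chain Csf2ra and the beta chain Csf2rb, Lif signals through Lifr and gp130 to JAK and STAT3, and Spp1 (osteopontin) binds integrins and Cd44. Many of these genes are transcribed under NF-kappaB or AP-1, and AP-1 is a classical output of the RAF-MEK-ERK pathway that BRAF drives.

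The upstream sequences of Spp1, Csf2, Csf1 and Cxcl10 are shown because AP-1 is an output of the inhibited pathway. With the inhibitor, Spp1 fell in all 6 comparisons, and Csf2 fell at day 1 in all 3 lines and at day 5 in NaJa-G alone. Csf1 and Cxcl10 rose in 6 and 5 of 6 comparisons. The windows run from 250 to 31 bases upstream of the RefSeq start site (GRCm38.p6), 5′ to 3′ on the strand of the gene, and overlap no exon of GENCODE M21. Capitals mark matches to the AP-1 motif TGANTCA, searched on both strands. The windows are chr5:104434861-104435080 on the plus strand for Spp1, chr11:54249930-54250149 on the minus strand for Csf2, chr3:107760500-107760719 on the minus strand for Csf1 and chr5:92348920-92349139 on the minus strand for Cxcl10.
Spp1: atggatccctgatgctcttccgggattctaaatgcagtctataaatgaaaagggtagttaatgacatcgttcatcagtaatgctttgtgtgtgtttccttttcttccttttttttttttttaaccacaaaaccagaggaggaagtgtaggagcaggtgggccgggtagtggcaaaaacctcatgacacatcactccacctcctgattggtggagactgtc
Csf2: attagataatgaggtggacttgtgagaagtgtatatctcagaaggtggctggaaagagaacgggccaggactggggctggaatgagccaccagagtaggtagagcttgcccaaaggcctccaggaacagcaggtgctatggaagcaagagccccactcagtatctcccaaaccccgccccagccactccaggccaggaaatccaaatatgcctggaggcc
Csf1: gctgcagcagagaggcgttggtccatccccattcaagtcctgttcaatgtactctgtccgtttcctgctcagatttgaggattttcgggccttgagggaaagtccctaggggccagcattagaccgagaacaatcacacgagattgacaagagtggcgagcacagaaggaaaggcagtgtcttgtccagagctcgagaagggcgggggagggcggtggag
Cxcl10: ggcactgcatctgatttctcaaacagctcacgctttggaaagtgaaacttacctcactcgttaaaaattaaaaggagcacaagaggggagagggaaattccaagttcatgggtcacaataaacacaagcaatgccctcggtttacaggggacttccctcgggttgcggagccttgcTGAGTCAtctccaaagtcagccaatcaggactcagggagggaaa
Cxcl10 held 1 match, and Spp1, Csf2 and Csf1 held none in these windows. GENCODE M21 places the Csf2 start at 54249667, downstream of the RefSeq start used for its window. The Csf2 window therefore lies further upstream of the GENCODE start than the range given, and the bases nearest to that start were not searched. The motif was in 6.12% of the same windows of 32851 RefSeq start sites. Of the other members with a window, Lif held 1 match and Cxcl1 and Cxcl2 none. These are matches of letters only.

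The libraries held 46007050 to 80121299 counts, and levels are given as CPM, the count relative to the TMM-scaled size of its library. Differences were tested with limma, and a gene was called where its p, adjusted by the Benjamini-Hochberg method over the 14107 genes, was below 0.01. Values for the 3 lines are listed in the order NaJa-D, NaJa-F, NaJa-G. The library labelled NaJa-D DMSO day 1 replicate 3 has a cell line field naming NaJa-G, but its log2 CPM correlated at 0.995 with both companion libraries of its group and at 0.917 to 0.92 with those of NaJa-G DMSO day 1, and it was kept under its title. Without it 6 instead of 7 members were called with encorafenib in NaJa-D at day 1, since Cxcl10 (log2 fold change 1.04, adjusted p = 0.0155) lost its call, and 4 instead of 5 were called between days in NaJa-D DMSO, since Csf2 (-0.8, adjusted p = 0.014) lost its call. Of 12 transcripts known as outputs of ERK, 9, 10 and 11 were lower with encorafenib at day 1 in the 3 lines, beside 44.9%, 29.5% and 64.0% of all genes called in either direction, and 7, 7 and 12 at day 5, beside 33.0%, 18.2% and 53.2%. Spry2, Spry4, Spred1, Etv4, Etv5 and Fosl1 were lower in all 6 comparisons. Higher were Phlda1 in NaJa-D at day 1 (0.29 on the log2 scale), Egr1 at day 5 in NaJa-D (1.63, adjusted p = 1.7e-10) and NaJa-F (0.56), and Dusp4 in NaJa-F at day 5 (0.34). Of 11 epithelial markers measured, 10 or 11 were above 1 CPM in every group. In DMSO 10 epithelial markers were lower and 9 of 10 mesenchymal ones higher for NaJa-G against NaJa-D, beside 67.4% of all genes called. The other mesenchymal marker, Fn1, was lower (-1.31, adjusted p = 2.49e-18). It had the highest level of the mesenchymal list, with means of 14000 CPM in NaJa-D and 4370 CPM in NaJa-G in DMSO at day 1. Of 17 leukocyte markers, 14, among them Ptprc, Adgre1 and Itgam, were not analysed here, and the 3 measured, Cd68, Csf1r and Mrc1, summed to 4.1 to 18.4 CPM. Of 6 stromal and mesothelial markers measured, Msln and Upk3b were higher with encorafenib in all 6 comparisons (0.48 to 1.61 and 1.28 to 5.12 on the log2 scale). Rgs5 was lower in all 6 (-7.89 to -2.97). Upk3b and Rgs5 had low levels, with means down to 0.0736 CPM for Upk3b (NaJa-G DMSO day 1) and 0.00812 CPM for Rgs5 (NaJa-F encorafenib day 5). Msln means ran from 530 to 3150 CPM. Col1a1 (0.74 to 2.68) and the epithelial Cldn4 (0.53 to 1.9) were also higher in all 6 comparisons. The part of these genes in the results was not tested. In bulk RNA fewer cells of a type and less RNA per cell cannot be told apart.

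With encorafenib, Spp1 was lower in all 6 comparisons and Csf2 at day 1 in all 3 lines, whereas Csf1 and Cxcl16 were higher in all 6 comparisons and Cxcl10 in 5. In NaJa-D at day 1, 7 members passed the test (5 higher, 2 lower), beside 44.9% of all genes, and at day 5 it was 8 (7 higher, 1 lower), beside 33.0%. In NaJa-F the counts were 6 (4 higher, 2 lower) beside 29.5% at day 1 and 5 (4 higher, 1 lower) beside 18.2% at day 5. NaJa-G had 6 members called at day 1 (3 higher, 3 lower), beside 64.0% of all genes, which is near the background, and 8 at day 5 (6 higher, 2 lower), beside 53.2%. The median absolute log2 fold change of the members was 1.01, 0.53 and 0.71 at day 1 in the 3 lines, where that of all genes was 0.31, 0.21 and 0.47. At day 5 it was 0.54, 0.4 and 1.2, beside 0.22, 0.17 and 0.37. The members were chosen with earlier results of these data known, so their counts and medians beside those of all genes are a description. The 6 comparisons use separate libraries.

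**Figure D1:**
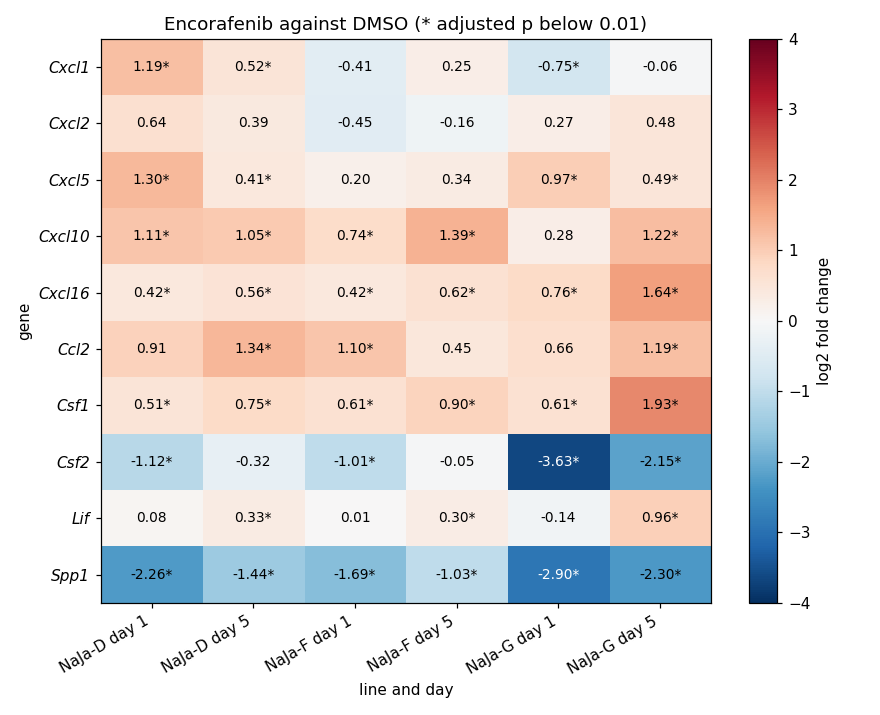
Log2 fold change of each gene (rows) between encorafenib and DMSO in each line and day (columns), from limma, with an asterisk at an adjusted p below 0.01. Spp1 is blue in all 6 columns, from -2.90 to -1.03, and Csf1 and Cxcl16 are red in all 6.

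Spp1 was the most strongly lowered member at day 1 in NaJa-D and NaJa-F, and second to Csf2 in NaJa-G. In NaJa-D its level was 185, 218 and 224 CPM in DMSO at day 1 and 37.4, 47.9 and 46.1 CPM with encorafenib. At day 5 the same line had 145, 163 and 156 CPM in DMSO and 56.1, 55.6 and 59 CPM with encorafenib. No treated NaJa-D library came near a DMSO library, and the fall was 4.79-fold at day 1 (log2 fold change -2.26, SE 0.076, adjusted p = 3.53e-19) and 2.72-fold at day 5 (-1.44, SE 0.075, adjusted p = 4.4e-15). NaJa-F went from 183, 175 and 165 CPM to 55.1, 54.4 and 52.5 CPM at day 1, and from 162, 160 and 155 CPM to 83.3 and 72.8 CPM at day 5. The groups were again separate, with a fall of 3.22-fold (adjusted p = 2.46e-16) and 2.04-fold (adjusted p = 1.07e-10). In NaJa-G, where DMSO levels were 459, 435 and 448 CPM at day 1 and 570 and 535 CPM at day 5, encorafenib libraries held 58.2, 57.3 and 65.5 CPM and 108, 113 and 115 CPM. Here Spp1 fell 7.44-fold at day 1 (log2 fold change -2.90, SE 0.078, adjusted p = 1.95e-22) and 4.92-fold at day 5 (-2.30, SE 0.088, adjusted p = 1.01e-18). Treated NaJa-G cells thus held less Spp1 than any DMSO library of any line.

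The Spp1 response was weaker at day 5 than at day 1 in each line, by 0.82 on the log2 scale for NaJa-D (95% confidence interval 0.6 to 1.04, adjusted p = 4.42e-06), 0.66 for NaJa-F (0.43 to 0.89, adjusted p = 0.000124) and 0.6 for NaJa-G (0.36 to 0.84, adjusted p = 0.000157). NaJa-G had a deeper response than NaJa-D, with a difference of -0.63 at day 1 (adjusted p = 2.6e-05) and -0.86 at day 5 (adjusted p = 1.2e-06), and a deeper one than NaJa-F, with -1.21 (adjusted p = 5.13e-10) and -1.27 (adjusted p = 2.23e-09). The genes whose group means were most like Spp1 over the 12 groups were Etv5, an ETS transcription factor (Pearson r = 0.978 of mean log2 CPM), and Spred1, an inhibitor of RAS signalling (r = 0.968). Etv5 averaged 73.6 CPM in NaJa-G DMSO at day 1 and 10.9 CPM with encorafenib, and Spred1 115 and 66.3 CPM. These 12 points share lines and treatments, and the correlations are a description. The single-exon model Gm42793 lies within Spp1 on the same strand and shares 11.6% of the 50-base stretches of the Spp1 transcripts, so reads there could have been assigned to either model, and Gm42793 was not analysed here.

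**Figure D2:**
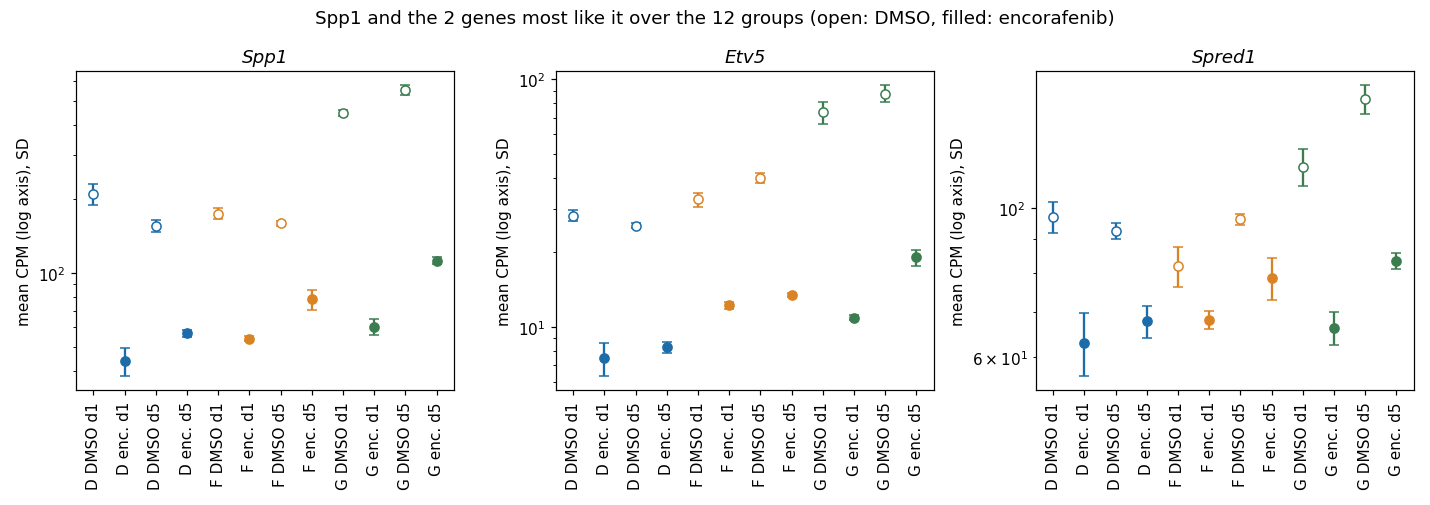
Mean CPM (log axis, bars SD over the 2 or 3 libraries) of Spp1, Etv5 and Spred1 in the 12 groups, with open symbols for DMSO and filled ones for encorafenib. All 3 genes are highest in NaJa-G DMSO at day 5 (Spp1 553, Etv5 87.6 and Spred1 145 CPM) and lie below their DMSO group wherever encorafenib was given.

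Csf2, which encodes GM-CSF, fell at day 1 in all 3 lines, but with few counts. NaJa-D had 1.93, 1.64 and 1.92 CPM in DMSO and 0.873, 0.856 and 0.771 CPM with encorafenib at day 1. NaJa-F, the line with the most Csf2, had 5.45, 5.18 and 7.29 CPM and 2.68, 2.87 and 3.3 CPM. In NaJa-G, 1.9, 1.85 and 1.98 CPM in DMSO stood against 0.192, 0.106 and 0.162 CPM, the latter from 12, 8 and 8 counts. The groups did not overlap in any line, and the fall was 2.18-fold in NaJa-D (adjusted p = 0.000189), 2.02-fold in NaJa-F (adjusted p = 2.9e-07) and 12.4-fold for NaJa-G (log2 fold change -3.63, SE 0.336, adjusted p = 1.19e-10). By day 5 the treated and DMSO libraries of NaJa-D overlapped (0.658, 0.774 and 1.12 CPM with encorafenib, 1.18, 1.12 and 0.82 CPM in DMSO), as did those of NaJa-F (3.55 and 2.86 CPM against 3.25, 3.21 and 3.42 CPM). The day 5 differences of -0.32 in NaJa-D (95% confidence interval -0.83 to 0.19, adjusted p = 0.304) and -0.05 in NaJa-F (-0.39 to 0.29, adjusted p = 0.864) did not pass. NaJa-G still had 0.181, 0.328 and 0.244 CPM with encorafenib against 0.886 and 1.33 CPM, a fall of 4.43-fold (adjusted p = 1.79e-06).

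The Csf2 response of NaJa-G was deeper than that of NaJa-D by -2.51 at day 1 (adjusted p = 1.27e-05) and -1.83 at day 5 (adjusted p = 9e-04), and than that of NaJa-F by -2.62 (adjusted p = 8.89e-07) and -2.1 (adjusted p = 4.02e-05). Between NaJa-F and NaJa-D the responses differed by 0.11 at day 1 (95% confidence interval -0.44 to 0.66) and 0.27 at day 5 (-0.34 to 0.88). The change from day 1 to day 5 passed in NaJa-F (0.96, adjusted p = 0.00202, but 0.0108 with edgeR and 0.0202 with only the groups compared) but not in NaJa-D (0.8, adjusted p = 0.0987) or NaJa-G (1.48, adjusted p = 0.0113), where it was called without DMSO day 5 replicate 3 or encorafenib day 5 replicate 1 (lowest adjusted p = 0.00669), with DESeq2 (adjusted p = 0.00167) and with RLE scaling (adjusted p = 0.00917). Without NaJa-F encorafenib day 5 replicate 1 it was 0.79 in NaJa-F (adjusted p = 0.0353), and without NaJa-G DMSO day 5 replicate 3 the day 5 difference between NaJa-G and NaJa-D was -1.52 (adjusted p = 0.0148). In DMSO, Csf2 itself fell from day 1 to day 5, with log2 differences of -0.83, -0.85 and -0.78 in the 3 lines. Treated means at days 1 and 5 were 0.833 and 0.85 CPM in NaJa-D, beside 1.83 and 1.04 CPM in DMSO. NaJa-F had 2.95 and 3.2 CPM treated, beside 5.97 and 3.29 CPM, and NaJa-G 0.153 and 0.251 CPM, beside 1.91 and 1.11 CPM. The smaller day 5 differences of NaJa-D and NaJa-F thus go with a lower DMSO level, with treated means little changed. An exon of the antisense model Gm12223, which was not analysed here, overlaps Csf2, and the strand setting of the counting is not given in the sources used here.

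**Figure D3:**
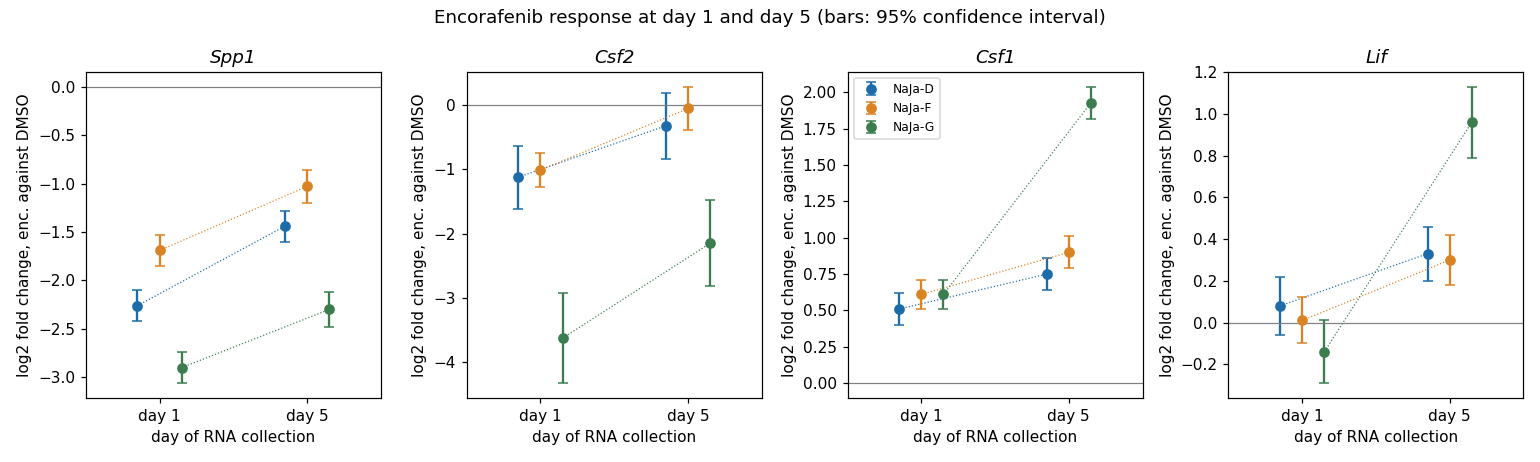
Log2 fold change between encorafenib and DMSO at day 1 and day 5 for Spp1, Csf2, Csf1 and Lif, with 95% confidence intervals from limma, and dotted lines join the days of a line. Spp1 and Csf2 sit closer to 0 at day 5, and Csf1 and Lif of NaJa-G rise from 0.61 to 1.93 and from -0.14 to 0.96.

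Csf1, the growth and survival factor of macrophages, rose in every comparison. At day 1 NaJa-D had 31.6, 32.7 and 35.1 CPM in DMSO and 44.8, 45.7 and 51.3 CPM with encorafenib. In NaJa-F the levels were 83.1, 84.2 and 81.4 CPM and 127, 124 and 129 CPM, and in NaJa-G 88.4, 81.9 and 83.1 CPM and 131, 123 and 132 CPM. All treated libraries lay above those of their DMSO group, and the day 1 rise was 1.43-fold, 1.53-fold and 1.53-fold, with differences between lines of at most 0.1 on the log2 scale and 95% confidence intervals within -0.14 and 0.25. At day 5 the lines parted. NaJa-D went from 24.5, 24.1 and 22.5 CPM to 39.9, 41.5 and 37.9 CPM and NaJa-F from 60.5, 62.2 and 62.3 CPM to 116 and 115 CPM. NaJa-G went from 52.3 and 49.1 CPM to 189, 198 and 191 CPM, the highest Csf1 of any group. The rise was 1.68-fold in NaJa-D (adjusted p = 6.69e-12), 1.87-fold in NaJa-F (adjusted p = 2.1e-13) and 3.8-fold for NaJa-G (log2 fold change 1.93, SE 0.055, adjusted p = 2.15e-21). The day 5 response of NaJa-G exceeded that of NaJa-D by 1.18 (adjusted p = 2.44e-12) and that of NaJa-F by 1.02 (adjusted p = 2.75e-11). Within NaJa-G the response grew by 1.32 from day 1 to day 5 (adjusted p = 2.55e-14), while the DMSO level fell by 0.74 on the log2 scale (adjusted p = 1.5e-11). In NaJa-F it grew by 0.3 (adjusted p = 0.00693), a call that was lost in 10 of 11 fits without 1 library (adjusted p up to 0.0319) and kept without encorafenib day 1 replicate 3, and lost with RLE scaling (adjusted p = 0.0144). In NaJa-D it grew by 0.24 (adjusted p = 0.0345), and when encorafenib day 1 replicate 3 was left out the adjusted p was 0.00159.

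Csf1r, the receptor of Csf1, was also higher in all 6 comparisons, by 1.92 to 3.01 on the log2 scale, from a low base. In NaJa-D, Csf1r averaged 0.257 CPM in DMSO at day 1 and 1.85 CPM with encorafenib, in NaJa-F 0.919 and 4.11 CPM, and in NaJa-G 0.161 and 1.31 CPM. Csf1r is a macrophage marker as well, whereas Mrc1, another marker of that list, was lower in all 6 comparisons, by -4.47 to -1.66, and Cd68 was called in NaJa-G at day 5 alone (0.64). Mrc1 was low too, with group means of 0.382 to 12.6 CPM in DMSO and 0.132 to 0.59 CPM with encorafenib. The part of other cells in these values was not tested.

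Cxcl16, a transmembrane chemokine that is shed by ADAM10 and binds Cxcr6, was the other member that rose throughout. In NaJa-D, DMSO libraries held 119, 125 and 131 CPM at day 1 and treated ones 154, 163 and 188 CPM. In NaJa-F the values were 125, 131 and 129 CPM and 171, 171 and 173 CPM, and in NaJa-G only 24.6, 24.7 and 24.3 CPM and 41.1, 41.2 and 42 CPM. No group overlapped with its control, and the day 1 rise was 1.34-fold in NaJa-D (adjusted p = 1.01e-06), 1.34-fold in NaJa-F (adjusted p = 1.93e-06) and 1.69-fold for NaJa-G (adjusted p = 2.82e-11). At day 5 treated NaJa-D libraries reached 187, 181 and 196 CPM against 115, 141 and 126 CPM, and treated NaJa-F libraries 168 and 168 CPM against 108, 111 and 109 CPM. Treated NaJa-G libraries held 44.7, 48.3 and 46.3 CPM against 14.5 and 15.3 CPM. The rise was thus 1.48-fold, 1.54-fold and 3.11-fold, and the NaJa-G response exceeded that of NaJa-D by 1.07 (adjusted p = 1.81e-09) and that of NaJa-F by 1.01 (adjusted p = 8.95e-09). At day 1 the excess was 0.34 over both lines (adjusted p = 0.00268 and 0.00278), and without NaJa-D encorafenib day 1 replicate 1 that over NaJa-D was 0.27 (adjusted p = 0.0128). Scaled by library size only, the excess over NaJa-D was 0.21 (adjusted p = 0.034). Even so, NaJa-G with encorafenib stayed below every DMSO library of NaJa-D and NaJa-F. The treated NaJa-G mean was 41.4 CPM at day 1 and 46.4 CPM at day 5, while the DMSO mean went from 24.5 to 14.9 CPM. The larger NaJa-G response at day 5 thus goes mainly with a lower DMSO level. Exons of Zmynd15 overlap Cxcl16 on the opposite strand; Zmynd15 was at 1.05 to 6.37 CPM over the 34 libraries.

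Cxcl5, a neutrophil chemokine, rose in NaJa-D and NaJa-G. Its levels in NaJa-D at day 1 were 59.6, 80.8 and 64.1 CPM in DMSO and 184, 180 and 138 CPM with encorafenib, a rise of 2.46-fold (log2 fold change 1.30, SE 0.092, adjusted p = 2.47e-12). NaJa-G rose from 27.6, 32.9 and 32.3 CPM to 61, 60.6 and 58.6 CPM, or 1.95-fold (adjusted p = 3.95e-10). In both lines the groups were apart. NaJa-F began at 157, 162 and 177 CPM and had 187, 190 and 190 CPM with encorafenib, a difference of 0.2 (95% confidence interval 0.01 to 0.39, adjusted p = 0.0875, or 0.00839 with only the groups compared). The response of NaJa-F was smaller than that of NaJa-D by -1.1 (adjusted p = 1.48e-06), and that of NaJa-G larger than that of NaJa-F by 0.77 (adjusted p = 2.3e-05). At day 5 treated libraries of NaJa-D held 229, 217 and 224 CPM against 158, 179 and 166 CPM, and those of NaJa-G 66.1, 71.6 and 67.9 CPM against 51.7 and 46.1 CPM. These rises were 1.33-fold (adjusted p = 0.000509) and 1.4-fold (adjusted p = 0.000152), and NaJa-F differed by 0.34, with an adjusted p of 0.0128 with limma, 0.00269 with DESeq2, 0.00891 with RLE scaling and 0.00352 with only the groups compared. The responses shrank from day 1 to day 5 in NaJa-D by -0.88 (adjusted p = 2.44e-05) and in NaJa-G by -0.48 (adjusted p = 0.00696), while Cxcl5 in DMSO rose with time in these lines, 2.48-fold in NaJa-D (adjusted p = 1.38e-11) and 1.58-fold in NaJa-G (adjusted p = 1.01e-05). The change of -0.48 was lost in 6 of 11 fits, those without DMSO day 1 replicate 1, DMSO day 5 replicate 1, encorafenib day 1 replicate 1 or 2, or encorafenib day 5 replicate 1 or 3 (adjusted p up to 0.0473), and with library size only (adjusted p = 0.028), that of -0.88 with only the groups compared (adjusted p = 0.0123), and the day 5 call in NaJa-G without its DMSO replicate 3 (adjusted p = 0.0101).

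Cxcl1, a neutrophil chemokine encoded beside Cxcl2 on chromosome 5, moved in opposite directions in NaJa-D and NaJa-G. At day 1 NaJa-D had 4.42, 5.77 and 4.71 CPM in DMSO and 13.6, 13 and 7.76 CPM with encorafenib, whereas NaJa-G had 4.46, 6.4 and 5.64 CPM and 2.79, 3.54 and 3.32 CPM. NaJa-F went from 14.5, 13.3 and 19.9 CPM to 11.1, 12.2 and 12.1 CPM. Groups did not overlap in any line, and the change was a rise of 2.29-fold in NaJa-D (adjusted p = 2.37e-05), a fall of 1.69-fold in NaJa-G (adjusted p = 0.00471) and a difference of -0.41 in NaJa-F that did not pass (adjusted p = 0.0245). The call in NaJa-G was lost without DMSO replicate 2 or 3 or without encorafenib replicate 1 or 3 (adjusted p up to 0.0306), and NaJa-F without DMSO replicate 2 had an adjusted p of 0.00742. The NaJa-D response differed from the others, with NaJa-G lower by -1.95 (adjusted p = 9.61e-06) and NaJa-F by -1.61 (adjusted p = 8.12e-05, or 0.0109 with only the groups compared). At day 5 NaJa-D had 11.2, 11 and 9.07 CPM and 15.9, 13.5 and 15.6 CPM, a rise of 1.44-fold (adjusted p = 0.00842) that was lost in 5 of 6 fits without 1 library (adjusted p up to 0.0592) and kept without encorafenib replicate 2, and lost with library size only (adjusted p = 0.0164). NaJa-F (0.25, adjusted p = 0.241) and NaJa-G (-0.06, adjusted p = 0.815) had no call at day 5. Cxcl1 in NaJa-D DMSO itself rose 2.11-fold from day 1 to day 5 (adjusted p = 0.000199).

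Cxcl2 was called in none of the 6 comparisons. Its levels ran from 0.168 CPM in NaJa-D DMSO to 4.17 CPM in NaJa-G with encorafenib, and the largest difference with encorafenib outside NaJa-D was 0.48 in NaJa-G at day 5 (adjusted p = 0.0281). In NaJa-D at day 1, where DMSO libraries had 8 to 12 counts, the 95% confidence interval ran from -0.32 to 1.6 and so held both 0 and the log2 fold change of Cxcl1. Cxcl2 shares 5.84% of its 50-base stretches with Cxcl3, which stood at 8.25 to 62.6 CPM, rose in all 6 comparisons (0.55 to 1.43) and is known as another Cxcr2 ligand.

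Cxcl10, an interferon-inducible chemokine for T cells, rose in 5 comparisons and Ccl2, the monocyte chemokine, in 3, both from DMSO levels of at most 1.5 CPM. Cxcl10 in NaJa-F had 1.15, 1.05 and 1.18 CPM at day 1 and 1.64, 2.33 and 1.74 CPM with encorafenib, and at day 5 0.764, 0.826 and 0.818 CPM against 2.07 and 2.16 CPM. The groups were apart, with a rise of 1.67-fold (adjusted p = 0.000314) and 2.62-fold (adjusted p = 8.92e-07). In NaJa-D, 8 to 23 counts per DMSO library and 25 to 51 per treated one gave rises of 2.15-fold at day 1 (adjusted p = 0.00292) and 2.07-fold at day 5 (adjusted p = 0.00101). The day 1 call was lost without DMSO replicate 1 or 3 or encorafenib replicate 2 (adjusted p up to 0.0193) and with only the groups compared (adjusted p = 0.0194), and that at day 5 without DMSO replicate 3 (adjusted p = 0.0116). NaJa-G had 0.955, 0.844 and 0.798 CPM and 1.07, 0.912 and 1.25 CPM at day 1, which overlapped (0.28, adjusted p = 0.172), and 0.569 and 0.637 CPM against 1.51, 1.61 and 1.19 CPM at day 5, a rise of 2.33-fold (adjusted p = 1.86e-05). The day 5 response of NaJa-G exceeded its day 1 response by 0.94 (adjusted p = 0.00801), which was lost in 8 of 11 fits without 1 library (adjusted p up to 0.0359) and kept without replicate 3 of DMSO day 1, encorafenib day 1 or encorafenib day 5. It was also lost with DESeq2 (adjusted p = 0.0133) and with only the groups compared (adjusted p = 0.0272). An exon of Art3, which was not analysed here, overlaps Cxcl10 on the opposite strand.

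Ccl2 rose 2.53-fold in NaJa-D at day 5 (adjusted p = 0.000592), 2.14-fold in NaJa-F at day 1 (adjusted p = 2.24e-05) and 2.28-fold in NaJa-G at day 5 (adjusted p = 8.72e-05). NaJa-D at day 5 had 0.295, 0.346 and 0.339 CPM in DMSO and 0.658, 0.957 and 0.894 CPM with encorafenib. NaJa-F at day 1 had 1.1, 1.11 and 1.04 CPM and 2.88, 1.87 and 2.35 CPM, and NaJa-G at day 5 0.635 and 1.04 CPM and 1.87, 2.03 and 1.8 CPM. These groups did not overlap. The other differences were 0.91 in NaJa-D at day 1 (adjusted p = 0.0368), 0.45 in NaJa-F at day 5 (adjusted p = 0.127) and 0.66 in NaJa-G at day 1 (adjusted p = 0.0105 with limma, 0.0085 with edgeR and 0.00692 with DESeq2), and no difference of the Ccl2 response between lines or days passed. Over the 12 groups Cxcl10 and Ccl2 were each other's most similar gene (r = 0.96 of mean log2 CPM).

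Lif, an IL-6 family cytokine, passed the test at day 5 in all 3 lines and at day 1 in none. NaJa-D had 17.2, 17.8 and 17.9 CPM in DMSO and 18.5, 18.3 and 19.3 CPM with encorafenib at day 1, and 16.2, 18.5 and 16.9 CPM against 22.5, 20.7 and 21.3 CPM at day 5. NaJa-F had 39.7, 39.2 and 45.4 CPM and 41.5, 39.6 and 44.3 CPM at day 1, and 36.7, 36.4 and 38.1 CPM against 46.6 and 44.7 CPM at day 5. NaJa-G had 11.1, 10.7 and 11.2 CPM and 10.2, 9.73 and 10.1 CPM at day 1, and 7.51 and 7.59 CPM against 15.2, 15.3 and 13.8 CPM at day 5. The day 5 groups were apart in each line, and the rise was 1.26-fold in NaJa-D (adjusted p = 9.56e-05), 1.23-fold in NaJa-F (adjusted p = 0.000249) and 1.95-fold for NaJa-G (adjusted p = 7.07e-11). In NaJa-F the call was lost without encorafenib replicate 1 (adjusted p = 0.0136). The day 1 differences were 0.08, 0.01 and -0.14 (adjusted p = 0.282, 0.872 and 0.0926), and that of NaJa-F was -0.01 when libraries were scaled by their totals alone. The change of the response from day 1 to day 5 passed in NaJa-G (1.1, adjusted p = 4.46e-09) but not in NaJa-F (0.29, adjusted p = 0.0157) or NaJa-D (0.24, adjusted p = 0.064). Without NaJa-F DMSO day 1 replicate 2 or encorafenib day 1 replicate 3 the change in NaJa-F was called (lowest adjusted p = 0.00718). At day 5 the response of NaJa-G exceeded that of NaJa-D by 0.63 (adjusted p = 2.52e-05) and that of NaJa-F by 0.66 (adjusted p = 8.7e-06).

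**Figure D4:**
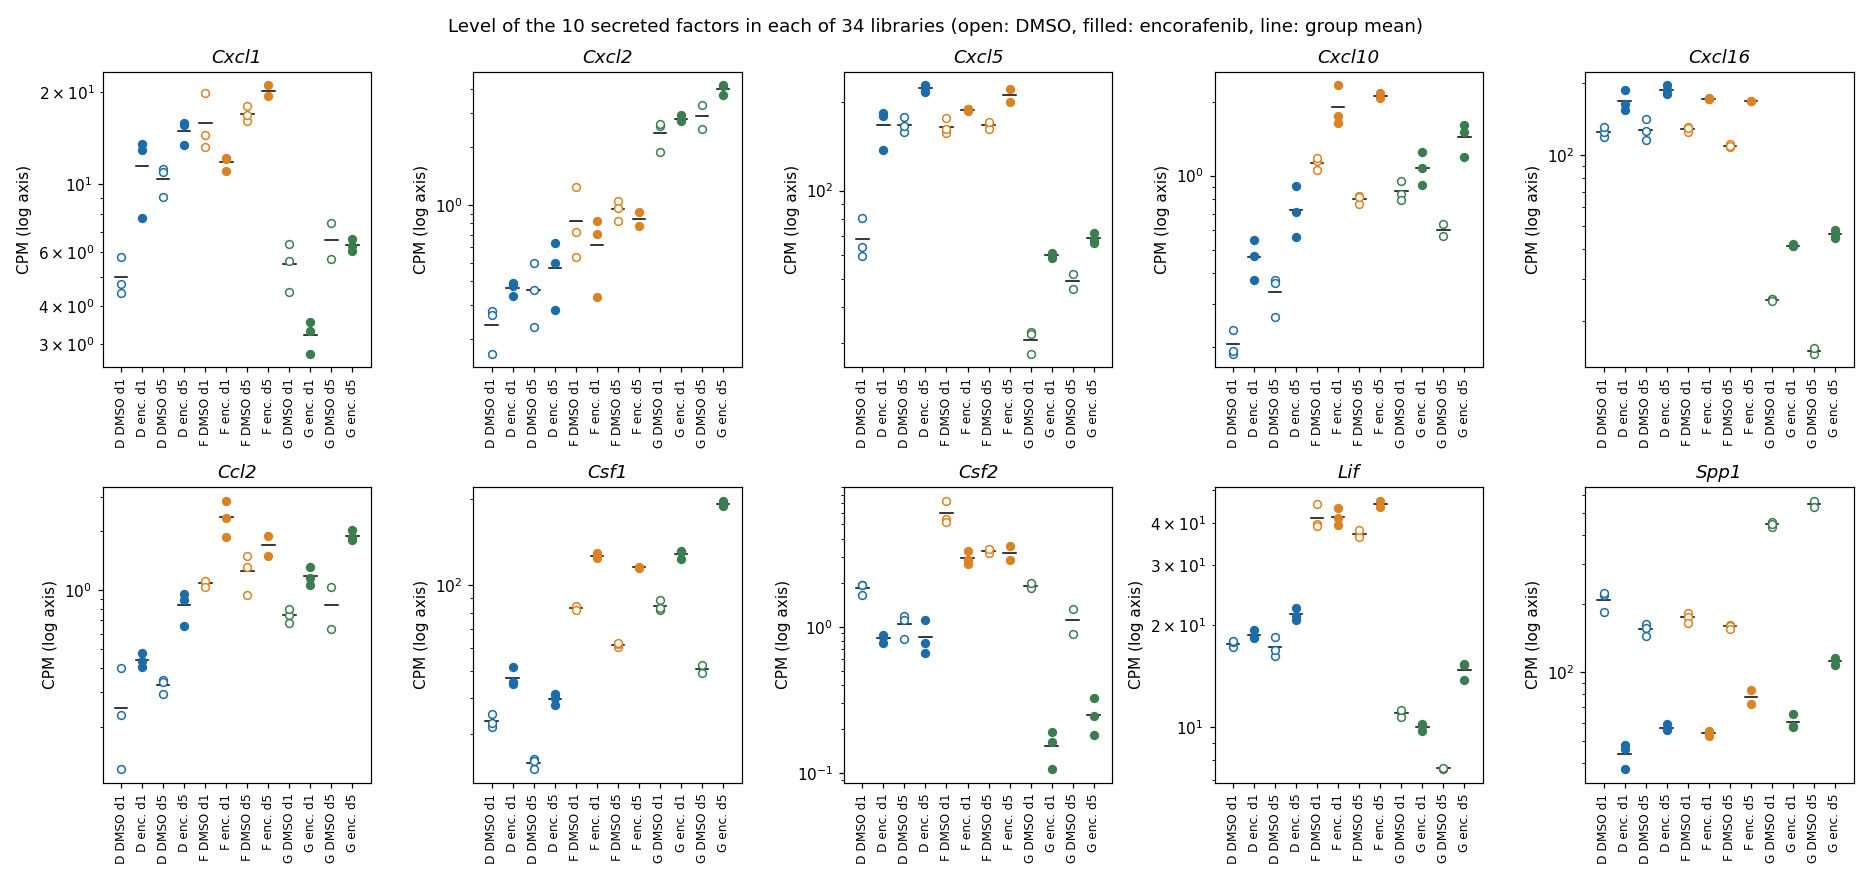
CPM (log axis) of the 10 genes in each library, grouped by line, treatment and day, with open symbols for DMSO, filled ones for encorafenib and a line at the group mean. Filled Spp1 points lie below every open one, from 37.4 to 115 CPM, and filled Csf1 and Cxcl16 points lie above the open ones of the same line and day.

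Counting the differences between responses, NaJa-F and NaJa-D differed in 3 members at day 1 (beside 8.79% of all genes) and in 0 at day 5 (beside 8.85%) with limma. Of the 10 members, 2 had an unadjusted p under 0.05 at day 5 (Ccl2 and Spp1), edgeR called 0 and DESeq2 called 1, Spp1. The response of NaJa-G differed from that of NaJa-D in 4 members at day 1 (beside 36.4%) and 5 at day 5 (beside 21.9%), and from that of NaJa-F in 4 (beside 33.5%) and 5 (beside 24.2%). At day 5 these were Cxcl16, Csf1, Csf2, Lif and Spp1 against both lines. Responses at day 5 and day 1 differed in 2 members in NaJa-D (beside 7.29%), 3 in NaJa-F (beside 5.88%) and 6 in NaJa-G (beside 31.7%). The count of NaJa-D was 4, with Cxcl1 and Csf1 added, when encorafenib day 1 replicate 3 was left out, and without NaJa-F encorafenib day 5 replicate 1 that of NaJa-F was 1. Without NaJa-D DMSO day 5 replicate 1 or NaJa-F encorafenib day 5 replicate 2, Spp1 was called between NaJa-F and NaJa-D at day 5. The comparisons between lines share the libraries of a line.

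Without the drug, the lines differed in most members, as did most genes. NaJa-F was higher than NaJa-D in 8 members and lower in 0, beside 61.6% of all genes called as the mean of both days. Of these 8, Cxcl5 differed at day 1 (1.29, adjusted p = 1.34e-12 with day 1 libraries alone) but not by the test at day 5 (0, adjusted p = 0.969), when NaJa-F had a mean of 167 CPM and NaJa-D one of 168 CPM. NaJa-G was higher in 5 and lower in 3 than NaJa-D, beside 67.4%. Against NaJa-F, NaJa-G was higher in 2 and lower in 7, beside 54.4%. The median absolute log2 difference of the members was 1.27, 1.44 and 1.58 in these comparisons, and that of all genes 0.32, 0.41 and 0.26. Because of how the members were chosen, these medians too are a description. Cxcl16 and Cxcl5 were low in NaJa-G, 6.59-fold (adjusted p = 6.47e-27) and 2.75-fold (adjusted p = 3.64e-17) below NaJa-D. Spp1 and Cxcl2 were high there, 2.77-fold (adjusted p = 4.3e-19) and 8.89-fold (adjusted p = 5.56e-12) above NaJa-D. NaJa-F had the most Lif, 2.26-fold above NaJa-D (adjusted p = 1.23e-19) and 4.3-fold above NaJa-G (adjusted p = 4.04e-24). It also had the most Csf2, 3.21-fold above NaJa-D and 3.04-fold above NaJa-G, and the most Cxcl1, 2.28-fold and 2.73-fold above them. Csf1 was 2.56-fold and 2.34-fold higher in NaJa-F and NaJa-G than in NaJa-D, and Ccl2 4.13-fold and 2.82-fold higher. NaJa-F and NaJa-D did not differ by the test in Spp1 (-0.11, adjusted p = 0.0644) or Cxcl16 (-0.09, adjusted p = 0.0545), and both differences were positive when libraries were scaled by their totals alone. Spp1 was called without NaJa-D DMSO day 1 replicate 1 (adjusted p = 0.00778) and Cxcl16 without NaJa-D DMSO day 5 replicate 1 (adjusted p = 0.00656). Spp1 was also called with day 1 libraries alone (-0.26, adjusted p = 0.0038) and Cxcl16 with day 5 libraries alone (-0.22, adjusted p = 0.00203). NaJa-G and NaJa-F differed in Csf1 by -0.13 (adjusted p = 0.00297) and in Ccl2 by -0.55 (adjusted p = 0.00587), and the groups overlapped. The Csf1 call was lost without NaJa-F DMSO day 5 replicate 2 or 3 or NaJa-G DMSO day 5 replicate 3 (adjusted p up to 0.0312), and with DESeq2 (-0.1, adjusted p = 0.0231), RLE scaling (-0.11, adjusted p = 0.0257) and only the groups compared (-0.1, adjusted p = 0.0283). By day, the Csf1 difference was 0.03 at day 1 (adjusted p = 0.68) and -0.28 at day 5 (adjusted p = 7.07e-05). The Ccl2 call was lost with only the groups compared (adjusted p = 0.0187) and in 7 of 11 fits without 1 library (adjusted p up to 0.0605), and kept without replicate 3 of NaJa-F DMSO at either day, NaJa-G DMSO day 1 replicate 2 or NaJa-G DMSO day 5 replicate 3.

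Per kb of exon, the levels in NaJa-D DMSO at day 1 ran from 0.0913 CPM per kb for Cxcl10 to 127 CPM per kb for Spp1, with Cxcl16 at 41.4 and Cxcl5 at 36.6 CPM per kb, whose SDs of 1.93 and 5.99 do not separate them. Csf1 stood at 6.27, Lif at 4.06, Cxcl1 at 2.65 and Csf2 at 2.29 CPM per kb. NaJa-G DMSO at day 1 kept Spp1 at the top with 272 CPM per kb, followed by Cxcl5 at 16.6 and Csf1 at 16 CPM per kb, which lie within their SDs of 1.55 and 0.656. Cxcl16 was at 8.11 CPM per kb there. In treated NaJa-G at day 5 Csf1 reached 36.5 and Cxcl5 36.8 CPM per kb, and Spp1 came to 68.2 CPM per kb, down from 335 CPM per kb in DMSO. In treated NaJa-D at day 1 the order differed from DMSO, and Cxcl5 at 89.9 and Cxcl16 at 55.6 CPM per kb stood above Spp1 at 26.6 CPM per kb.

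**Figure D5:**
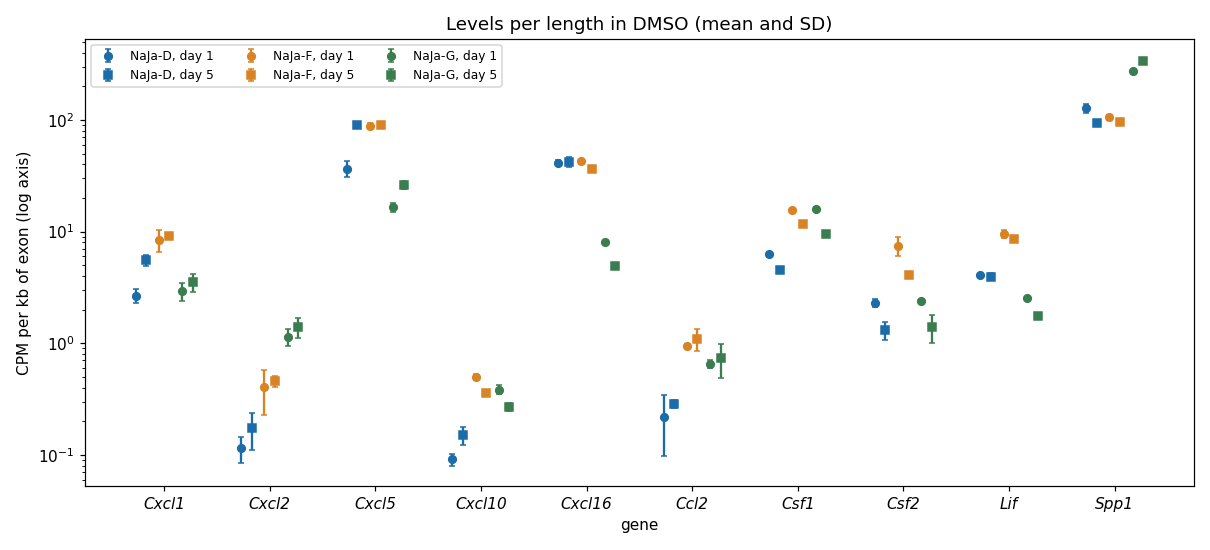
Mean CPM per kb of exon (log axis, bars SD over 2 or 3 libraries) of the 10 genes in DMSO, by line (colour) and day (circle day 1, square day 5). Spp1 is the highest in each line at day 1, at 127, 106 and 272 CPM per kb, and Cxcl16 and Cxcl5 are lowest in NaJa-G. At day 5 in NaJa-D, Spp1 at 93.8 and Cxcl5 at 90 CPM per kb lie within their SDs of 5.36 and 5.52.

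Time in DMSO also moved the members, with 5 called in NaJa-D (beside 29.0% of all genes), 3 in NaJa-F (beside 16.7%) and 6 in NaJa-G (beside 34.1%). Csf1 and Csf2 fell in all 3 lines, Csf1 by 0.48, 0.43 and 0.74 on the log2 scale. Spp1 went in opposite directions, lower in NaJa-D (-0.43, adjusted p = 3.78e-05) and higher in NaJa-G (0.31, adjusted p = 0.00718). The latter was lost in 4 of 5 fits without 1 library (adjusted p up to 0.093) and kept without DMSO day 1 replicate 1, and lost with RLE scaling (adjusted p = 0.0144) and with only the groups compared (adjusted p = 0.0206). The Csf2 call of NaJa-D was lost without replicate 1 or 3 of day 1 or replicate 3 of day 5 (adjusted p up to 0.0372), and that of NaJa-G without replicate 1 or 3 of day 1 or replicate 1 of day 5 (adjusted p up to 0.134). With library size only both were lost (adjusted p = 0.0259 and 0.0152). Lif fell in NaJa-G alone by the test (-0.54, adjusted p = 1.01e-05, or 0.0132 with only the groups compared), where NaJa-F had -0.16 (adjusted p = 0.0239). Cxcl16 fell in NaJa-G (-0.72, adjusted p = 5.79e-08) and in NaJa-F (-0.24, adjusted p = 0.00386), the latter lost without replicate 2 or 3 of day 1 or replicate 1 of day 5 (adjusted p up to 0.0221) and with library size only (adjusted p = 0.021). The response to encorafenib is measured against DMSO libraries of the same day, so these shifts enter the day 5 values.

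Of 21 other chemokines, interleukins and secreted factors measured, 7, 7 and 7 were higher and 3, 4 and 6 lower with encorafenib at day 1 in the 3 lines, and 10, 7 and 10 were higher and 2, 3 and 3 lower at day 5. Their median log2 fold change was 0.31, -0.13 and 0.2 at day 1 and 0.31, 0.16 and 0.55 at day 5, where that of all genes lay between -0.02 and 0.04. At day 1, 11, 10 and 8 of the 21 were not called in the 3 lines, and in NaJa-D and NaJa-G this is near the background. These counts and those of the lists that follow stand beside 44.9%, 29.5% and 64.0% of all genes called at day 1. At day 5 the shares of all genes called were 33.0%, 18.2% and 53.2%. Cxcl3, Ccl9, Il15 and Il18 rose in all 6 comparisons. Il18, an inflammasome-processed cytokine, had 1 to 5 counts in the DMSO libraries of NaJa-G at day 1 and 481 to 726 counts with encorafenib, and it was the most raised of the list in each line at day 1. Il15, which sustains T and NK cells, rose by 1.18 to 3.49 and Ccl9, a chemokine of myeloid cells, by 1.89 to 2.96. Both started from low levels, with DMSO group means of 0.202 to 0.486 CPM for Il15 and 0.22 to 0.744 CPM for Ccl9. The most lowered at day 1 were Cxcl12 in NaJa-D (-2.09, adjusted p = 0.00177), Il34, the other ligand of Csf1r, in NaJa-F (-0.65, adjusted p = 3.42e-05) and Mif in NaJa-G (-1.39, adjusted p = 2.19e-10). The other 26 genes of the list, Il6, Tnf, Il1b and Ccl20 among them, were not analysed here.

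Of the receptors and scavengers of these ligands 13 were measured, and 5, 5 and 10 were higher and 3, 2 and 1 lower at day 1 in the 3 lines. At day 5 it was 4, 2 and 5 higher and 2, 2 and 3 lower, with median log2 fold changes from -0.07 to 0.84 over the 6 comparisons. Csf1r was called higher in all 6, and no other receptor of the list was called the same way in all 6 with limma. The lowest called value at day 1 was that of Ackr3, a scavenger of Cxcl12, in NaJa-D (-0.8) and NaJa-F (-0.6), and that of Cd44 in NaJa-G (-0.4, adjusted p = 4.46e-07). Cd44, which binds Spp1, was at 458 to 1350 CPM over all libraries. Cxcr2, Cxcr3 and Ccr2 were not analysed here.

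Of 20 NF-kappaB subunits, kinases and feedback inhibitors, all measured, 13, 12 and 14 were higher at day 1 in the 3 lines and 12, 8 and 13 at day 5, while 0, 1 and 1 and then 0, 0 and 0 were lower. The median log2 fold change of the list was 0.46, 0.26 and 0.52 at day 1 and 0.33, 0.18 and 0.44 at day 5. Relb and Nfkb2, subunits of the non-canonical pathway, the kinase Ikbke, and Tnfaip3, Tnip1 and Birc3, which are induced by NF-kappaB, rose in all 6 comparisons. Tnfaip3, the feedback inhibitor A20, went from 10.3 ± 0.808 (SD, n = 2) to 53.8 ± 2.74 CPM (SD, n = 3) in NaJa-G at day 5. Nfkbie was the most raised at day 1 in NaJa-F (0.73) and NaJa-G (1.13) and Ikbke in NaJa-D (1.17), and Nfkbiz was the one lowered, in NaJa-F (-0.4) and NaJa-G (-0.92).

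Downstream of the Lif and GM-CSF receptors, 16 JAK, STAT and feedback genes were measured, of which 13, 9 and 10 were higher and 3, 3 and 3 lower at day 1, and 8, 4 and 10 higher and 2, 1 and 3 lower at day 5. Their median was 0.46, 0.21 and 0.5 at day 1 and 0.22, 0.1 and 0.41 at day 5. Cish, a feedback inhibitor of STAT5 signalling, and the kinase Pim1 rose in all 6 comparisons. Socs1, a feedback inhibitor of JAKs, was the most lowered in each line at day 1, with -1.28 in NaJa-D (adjusted p = 0.00227), -1.14 in NaJa-F (adjusted p = 0.00279) and -2.11 for NaJa-G (adjusted p = 1.06e-06). Its levels were low, with day 1 DMSO means of 1.97, 2.1 and 2.85 CPM in the 3 lines. Stat5a was the most raised in NaJa-D (1.44) and NaJa-F (0.86) and Pim1 in NaJa-G (1.66). Of 12 regulators of AU-rich cytokine messages and sheddases, 5, 3 and 5 were higher and 2, 2 and 5 lower at day 1, and 3, 0 and 3 higher and 3, 1 and 4 lower at day 5. Their medians lay between 0.01 and 0.24 over the 6 comparisons. Zfp36l2, which promotes decay of AU-rich messages, was the most lowered in each line at day 1 (-0.72, -0.54 and -1.61). Zc3h12a, an RNase of cytokine messages, was the most raised in NaJa-D (0.91), the sheddase Adam10 in NaJa-F (0.38) and Zfp36l1 in NaJa-G (0.96).

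For the other members, the genes most like them over the 12 groups were Ripor3 and Echdc2 for Cxcl1 (r = 0.947 and 0.938), Dpp7 and Mxra8 for Cxcl2 (0.982 and 0.982), and Dennd2d and 4632404M16Rik for Cxcl5 (0.959 and 0.959). Cxcl16 was most like March9 and Igsf5 (0.994 and 0.993), Csf1 most like Plcb4 and Snx16 (0.967 and 0.963), Csf2 most like Ube2cbp and Smco4 (0.974 and 0.968), and Lif most like Lnx1 and Tdrkh (0.983 and 0.98). The second gene for Cxcl10 was Bcl10 (0.95) and for Ccl2 Cacul1 (0.951). Among the members, the chemokines of the neutrophil group did not run together, with r = 0.855 for Cxcl1 and Cxcl5 but -0.447 for Cxcl1 and Cxcl2. Each r is over 12 group means that share lines and treatments, and is a description.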

How the data were processed

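RNA was sequenced from 34 libraries in 12 groups of line, treatment and day. The authors trimmed reads with Trimmomatic 0.39 and aligned them with STAR 2.5.2b to GRCm38/mm10 per the labels, and deposited 1 table of raw counts per Ensembl gene. Counting tool, gene models and strand setting are not given in the sources used here. GENCODE M21 gave symbols, positions and exon lengths for 14064 of the 14107 genes and for all 10 members.

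Counts were scaled by TMM (edgeR 4.0.16) and tested two-sided with voom in limma 3.58.1 (R 4.3.3) in 1 model of 12 group means with 22 residual degrees of freedom, with Benjamini-Hochberg adjustment over all 14107 genes and a threshold of 0.01. There were 21 comparisons: 6 of encorafenib with DMSO, 3 between lines in DMSO (mean of both days), 3 between days in DMSO, and 9 differences between responses. CPM values use the TMM-scaled library sizes. Confidence intervals of log2 fold changes are 95% intervals from the same model. Whether replicates were separate cultures is not stated, so p-values measure the spread between these libraries, which may be technical. The limma, edgeR and DESeq2 fits were tested on simulated counts in which only 1 group held changed genes. In these data many genes differ between lines, so the simulation does not show how the fits perform on them. Alternatives were edgeR, DESeq2 1.42.0, other scalings, filters and thresholds, and leaving out each library in turn.

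The members and gene lists were chosen with earlier results of these data known. All members were named. Of the other lists, counts were given for each encorafenib comparison, and genes were named if called the same way in all 6, or if the highest or lowest called at day 1 in a line. An item that met this rule is not reported here. Further genes named as examples (Csf1r, Mrc1 and Cd68 as markers, Phlda1, Egr1 and Dusp4 as ERK outputs that were higher, and genes that share sequence with a member) and the motif were chosen after values were seen. For likeness, the 2 genes with the highest Pearson r of group mean log2 CPM were named. Upstream sequences are from RefSeq and matched 7 of the 10 members.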

Additional observations from a re-analysis of the deposited data

Results flagged for a closer look

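The encorafenib response of a member differed between lines or days, by the limma test of the difference itself, in 32 cases. In the same comparisons between responses, 5.88% to 36.4% of all genes were called, as listed above. At day 1, 4 of 10 members were called for NaJa-G against NaJa-D and against NaJa-F. These counts were near the background of 36.4% and 33.5% of all genes. Values are differences of log2 fold changes. At day 1 the response of NaJa-F differed from that of NaJa-D in Cxcl1 (-1.61), Cxcl5 (-1.1) and Spp1 (0.57). That of NaJa-G differed from NaJa-D in Cxcl1 (-1.95), Cxcl16 (0.34), Csf2 (-2.51) and Spp1 (-0.63), and from NaJa-F in Cxcl5 (0.77), Cxcl16 (0.34), Csf2 (-2.62) and Spp1 (-1.21).

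At day 5 the response of NaJa-G differed from NaJa-D in Cxcl16 (1.07), Csf1 (1.18), Csf2 (-1.83), Lif (0.63) and Spp1 (-0.86), and from NaJa-F in Cxcl16 (1.01), Csf1 (1.02), Csf2 (-2.1), Lif (0.66) and Spp1 (-1.27). Between day 5 and day 1 it differed in NaJa-D in Cxcl5 (-0.88) and Spp1 (0.82), and in NaJa-F in Csf1 (0.3), Csf2 (0.96) and Spp1 (0.66). In NaJa-G the days differed in Cxcl5 (-0.48), Cxcl10 (0.94), Cxcl16 (0.88), Csf1 (1.32), Lif (1.1) and Spp1 (0.6). Groups of 2 or 3 libraries are too small to judge which library is an outlier, but each library was left out in turn. Several of these calls were lost without a single library, among them Csf1 in NaJa-F and Cxcl5 and Cxcl10 in NaJa-G between days. The counts between days ran from 2 to 4 in NaJa-D, 1 to 4 in NaJa-F and 4 to 6 in NaJa-G.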

How the results depend on the processing

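Of 210 differences (10 members in 21 comparisons), 206 kept direction and side of the threshold with edgeR, 203 with DESeq2, 204 with RLE scaling, 194 with scaling by library size only, 194 when only the groups compared entered the fit, and all 210 with filterByExpr, which kept all 14107 genes. At an adjusted p below 0.05, 13 more passed, and 52 calls were lost where a log2 change of 1 or more in either direction was also asked. No difference whose sign turned was called under the setting that turned it, and 2 of them, Cxcl5 between NaJa-F and NaJa-D and Csf1 between NaJa-G and NaJa-F in DMSO, had been called on the mean of both days. The sign turned for Csf1 between the responses of NaJa-G and NaJa-F at day 1 (0 with edgeR) and for Cxcl16 between NaJa-F and NaJa-D at day 1 (0.01 with DESeq2, 0.01 with RLE, 0.03 with only the groups compared). By library size only, it turned for Lif with encorafenib in NaJa-F at day 1 (-0.01), Cxcl16 (0.03) and Spp1 (0.01) between NaJa-F and NaJa-D, Lif between days in NaJa-D (0.13), and the day 1 response differences of Csf1 (0, -0.04 and -0.04). With day 1 libraries alone it turned for Cxcl16 between NaJa-F and NaJa-D (0.04), Cxcl1 between NaJa-G and NaJa-D (0.14) and Csf1 between NaJa-G and NaJa-F (0.03), and with day 5 libraries alone for Cxcl5 (0) and Spp1 (0.04) between NaJa-F and NaJa-D. The cause was not tested. With library size only, the all-gene median moved by 0.12 between NaJa-D and each other line, by 0.18 between days in NaJa-D and by -0.13 in the day 1 difference between responses of NaJa-G and NaJa-D. Higher calls as a share of all calls went from 52.8% to 63.6% with encorafenib in NaJa-D at day 1, from 52.9% to 66.5% and 49.4% to 59.9% for NaJa-F and NaJa-G against NaJa-D, and from 47.4% to 81.7%, 58.1% to 78.6% and 50.6% to 62.4% between days. For response differences it went from 51% to 34.7% (NaJa-F against NaJa-D, day 1), 55.5% to 40.2% and 64.3% to 51.4% (NaJa-G against NaJa-D, days 1 and 5).

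The count of members called between the responses of NaJa-F and NaJa-D at day 5 was 1 in place of 0 with DESeq2, library size only, the 0.05 threshold or only the groups compared, and that between days in NaJa-F was 5 at the 0.05 threshold. With a log2 change of 1 or more, encorafenib counts were 3 in NaJa-D at day 5, 3 and 2 in NaJa-F at days 1 and 5 and 2 in NaJa-G at day 1, counts between days in DMSO were 2, 0 and 0, and response counts were 2 and 2 for NaJa-G against either line at day 1, 3 against NaJa-D at day 5, and 0, 0 and 2 between days. With only the groups compared, the count between days in NaJa-G DMSO was 3, and response counts were 1 for NaJa-F against NaJa-D at each day and 1 between days in NaJa-D. Leaving out 1 library gave 0 to 1 for the responses of NaJa-F and NaJa-D at day 5, 2 to 4 between days in NaJa-D and 1 to 4 in NaJa-F.

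The replicate numbers were not used as pairs. Of 16 same-number pairs, 3 had a correlation above 0.1 (-0.156 to 0.215) of their deviations from the group means. In groups of 2 or 3 libraries these deviations depend on each other, so the correlations cannot exclude a pairing. With a replicate block, 206 of 210 values kept their call and direction. Cxcl1 with encorafenib in NaJa-D at day 5 (0.52, adjusted p = 0.0132 with limma) and Cxcl10 between days in NaJa-G (0.93, adjusted p = 0.0117) were lost, Csf2 between days in NaJa-G (1.52, adjusted p = 0.00342) was gained, and Csf2 with encorafenib in NaJa-F at day 5 was 0.03.

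Leaving out 1 library turned the sign of some differences that were not called, with the following ranges over these fits. In DMSO, Csf2 between NaJa-G and NaJa-D ran from -0.08 to 0.21, and between days Cxcl16 in NaJa-D ran from -0.05 to 0.09 and Ccl2 in NaJa-G from -0.22 to 0.48. In NaJa-F DMSO, Cxcl1 ran from -0.01 to 0.3 between days, Cxcl2 from -0.03 to 0.61 and Cxcl5 from -0.02 to 0.07. With encorafenib, Lif in NaJa-F at day 1 ran from -0.03 to 0.08, Csf2 in NaJa-F at day 5 from -0.21 to 0.09 and Cxcl1 in NaJa-G at day 5 from -0.24 to 0.15. Between the responses of NaJa-F and NaJa-D, Ccl2 ran from -0.19 to 0.62, Cxcl16 from -0.06 to 0.11 and Lif from -0.12 to 0 at day 1, and Cxcl16 from -0.02 to 0.13 and Lif from -0.08 to 0.02 at day 5. Between those of NaJa-G and NaJa-D, Ccl2 ran from -0.63 to 0.2 at day 1, and at day 5 Ccl2 ran from -0.48 to 0.22, Cxcl10 from -0.03 to 0.34, Cxcl2 from -0.2 to 0.37 and Cxcl5 from -0.01 to 0.15. Csf1 between the day 1 responses of NaJa-G and NaJa-F ran from -0.02 to 0.03. Between the responses of day 5 and day 1, Cxcl10 ran from -0.22 to 0.14 and Cxcl2 from -0.53 to 0.03 in NaJa-D, and Cxcl2 from -0.11 to 0.58 in NaJa-F.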
